A study of Mus musculus with 5 samples.

Results

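The 9 genes described here belong to the RAS-MAPK pathway and were chosen by name: the driver NRAS, the transcription factors MYC, FOSL1, ETV4 and ETV5, the feedback inhibitors DUSP6, SPRY2 and SPRY4, and the ERK-responsive gene PHLDA1. The rule that picks them uses no measured value, although it was set with earlier results of these data known, and all 9 were found among the 13979 gene symbols shared by the 3 tables from which the 5 libraries were taken. RNA was sequenced from Lewis lung carcinoma (LLC), a mouse lung tumor line, and 5 groups were compared through 1 library per treatment. They are named Control, BMN (the PARP inhibitor BMN673), PAZA (a polymer that carries azacytidine, an inhibitor of DNA methyltransferases), BMN/PAZA_Low_dose and BMN/PAZA_High_dose. The sample labels attach low and high dose to BMN given with PAZA, whereas the paper describes both agents as scaled together. The labels also describe LLC cells exposed for 72 h, whereas the paper describes tumors taken from treated mice. Genes of other tissues were present in every library, since all 6 leukocyte, all 6 endothelial and all 7 fibroblast markers were listed above 0 in each.

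RAS proteins at the membrane pass growth factor signals through RAF and MEK to ERK, which phosphorylates transcription factors and so turns on genes such as FOSL1, ETV4, ETV5, PHLDA1 and DUSP6. DUSP6 is a phosphatase that inactivates ERK, and the Sprouty proteins SPRY2 and SPRY4 act upstream to restrain RAS activation, so these genes close negative feedback loops and are widely read as markers of ERK output. LLC cells are known to carry an activating mutation of Nras, which keeps the protein in its signaling form.

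The tables name no unit. Their values have the form of FPKM, which counts sequenced fragments relative to transcript length and library size. A level below is this value rescaled so that each library sums to 1e+06 over the shared symbols. A log2 change is the difference of log2(level + 1) between 2 libraries, which understates the change of weakly expressed genes. Replicate error could not be estimated from 1 library a group and no test was possible, so differences are between libraries and not shown to be between treatments. The files hold no read counts, and the depth behind each value is unknown. Ratios of genes near the lower end clustered at steps where BMN/PAZA_Low_dose was paired with BMN or with PAZA. By these steps a fragment of the BMN library carried 0.711 of the weight of a BMN/PAZA_Low_dose fragment, and a PAZA fragment 0.987 of it. Elsewhere the most frequent ratio hardly exceeded the next. The gene numbers were 39 against 38 for Control and PAZA, 27 against 26 for BMN and BMN/PAZA_High_dose, and 21 against 17 for both combinations. Control and PAZA came from one table, BMN and BMN/PAZA_High_dose from another and BMN/PAZA_Low_dose from a further one, and the tables were not all on the same scale. The BMN and BMN/PAZA_High_dose columns had a constant of 1 between the tables that hold them, whereas the PAZA and BMN/PAZA_Low_dose columns differed between tables by constants of 0.987, 1.05 and 0.307. Each change is therefore set beside the median and the spread of all genes in the same comparison. The mitochondrial ribosomal RNAs MT-RNR1 and MT-RNR2 and the small nuclear RNA RN7SK together held 29.4% to 38.1% of the sum, so every member was also computed under a median-ratio scaling and under a sum over nuclear protein-coding genes. Values of the same library deposited in different tables kept the constant between tables for all 9 members, with a largest deviation of 0.0088%, whereas up to 2.44% of all genes lay more than 0.5% from it.

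Promoter sequence from RefSeq (GRCm38.p6) was looked up for all members but Spry4 and was at hand for Nras, Dusp6, Spry2 and Etv5. In these 4 members the 250 bases before the start of transcription were searched on both strands. Nras and Dusp6 are shown, because they are the driver and the best known feedback gene of the group and each holds a motif of a factor family among the members. In Nras, on chr3:103058035-103058284 of the plus strand, the capitals mark an E-box (CACGTG), the palindrome bound by MYC and related factors, whose first base lies 15 bases before the start. In Dusp6, on chr10:99262981-99263230 of the plus strand, they mark the ETS core GGAAG, here on the reverse strand and so read as CTTCC, at 210 and 62 bases before the start. The Nras window also held 1 ETS core on each strand, in lower case here, and the window before a start of Etv5 held 2.
Nras: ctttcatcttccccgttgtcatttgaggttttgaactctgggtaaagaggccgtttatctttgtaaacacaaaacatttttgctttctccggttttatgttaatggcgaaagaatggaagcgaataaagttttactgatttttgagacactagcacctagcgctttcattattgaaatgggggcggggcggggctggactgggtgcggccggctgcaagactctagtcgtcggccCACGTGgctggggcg
Dusp6: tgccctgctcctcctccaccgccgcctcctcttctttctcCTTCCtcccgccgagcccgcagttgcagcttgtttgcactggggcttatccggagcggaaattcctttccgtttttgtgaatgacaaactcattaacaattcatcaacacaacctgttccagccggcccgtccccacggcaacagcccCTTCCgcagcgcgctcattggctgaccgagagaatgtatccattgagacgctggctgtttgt

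Of 32851 promoter windows of the same length, 6.02% held the E-box and 64.1% the ETS core, so the ETS core is common. The extended ETS site CCGGAA, held by 12.0% of windows, the AP-1 site TGANTCA, held by 6.75%, and the CRE TGACGTCA, held by 1.55%, were in none of these windows. CpG dinucleotides, the bases that DNA methyltransferases modify, numbered 14 in Nras, 16 in Dusp6, 23 in Spry2, and 27 and 18 in the windows before both starts of Etv5, against a median of 6 over all windows. DNA methylation was not measured in these files, and a matching sequence is a description only.

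PHLDA1, a pleckstrin-homology-like protein induced by ERK signaling, varied most of the 9 members. Its level was 9.66 in Control, 19.3 in BMN, 15.8 in PAZA, 16.6 in BMN/PAZA_Low_dose and 22.7 in BMN/PAZA_High_dose. Control was the lowest library and BMN/PAZA_High_dose the highest, at 2.35 times the Control level, and this order was the same under all 3 scalings. The log2 change against Control was 0.93 in BMN, 0.65 in PAZA, 0.72 in BMN/PAZA_Low_dose and 1.15 in BMN/PAZA_High_dose. In these comparisons PHLDA1 stood above 94.4%, 91.3%, 92.3% and 97.8% of all genes tested, and all 4 comparisons share the 1 Control library. It was the only member past 2-fold in any of the 8 comparisons, in BMN/PAZA_High_dose against Control, where 3.20% of all genes were past 2-fold higher and 4.95% lower. At 1.5-fold it was also past the line in that comparison and in BMN/PAZA_Low_dose against Control, as were 8.49% and 11.3% of all genes. Against Control, all 4 treated libraries also held higher summed levels of 7 skeletal muscle markers, at 11.7 in Control, 173 in BMN, 61.7 in PAZA, 16.0 in BMN/PAZA_Low_dose and 200 in BMN/PAZA_High_dose, with CKM listed at 0 in BMN/PAZA_Low_dose only. The part of these cells in the PHLDA1 values was not tested, and in bulk RNA more cells of a type and more RNA per cell cannot be told apart. The gene lies on chromosome 10 from 111506286 to 111508645 (GRCm38, plus strand), and a lincRNA annotated on its opposite strand, Gm28592, was listed at 0 in the table of BMN and BMN/PAZA_Low_dose.

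**Figure D1:**
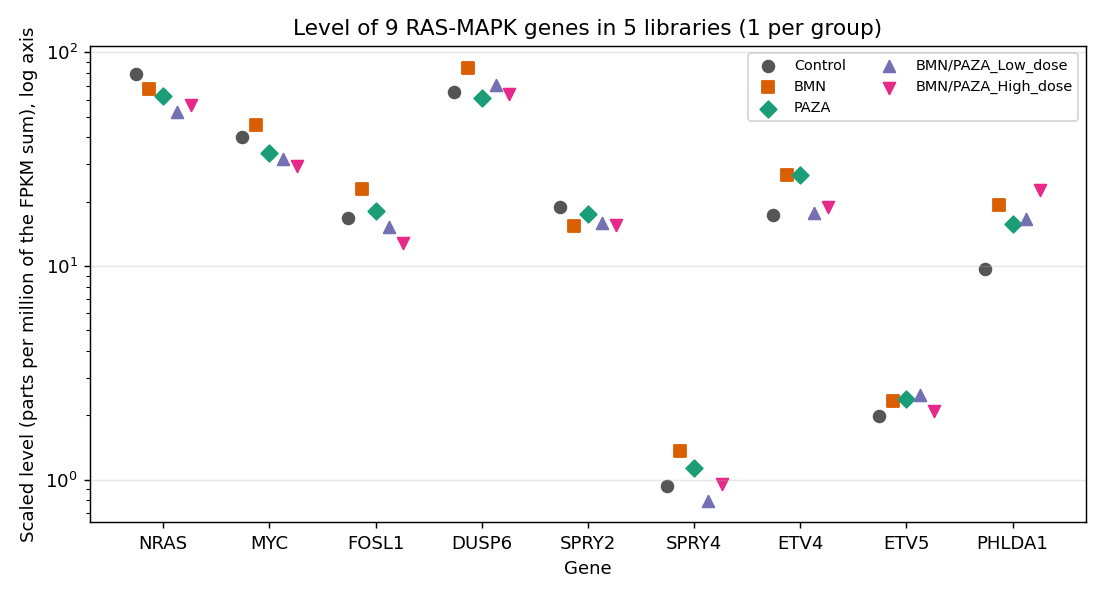
Level of each of the 9 genes in the 5 libraries, 1 point per library, as the scaled FPKM value on a log axis. PHLDA1 runs from 9.66 in Control to 22.7 in BMN/PAZA_High_dose, ETV4 is at 26.6 and 26.7 in BMN and PAZA and between 17.3 and 19.0 in the other libraries, and NRAS is highest in Control.

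ETV4 and ETV5 are ETS transcription factors of the PEA3 group that ERK signaling induces. ETV4 had a level of 17.3 in Control, 26.6 in BMN, 26.7 in PAZA, 17.8 in BMN/PAZA_Low_dose and 19.0 in BMN/PAZA_High_dose. The libraries of either agent alone were thus about 1.54 times Control, and in these levels both combination libraries lay near Control. Its log2 change against Control was 0.59 in BMN and 0.60 in PAZA, against 0.04 and 0.12 in the low and high dose combinations, and the order of its 5 levels was the same under all 3 scalings. Relative to the median of all genes, the change in BMN/PAZA_High_dose was 0.30, since that library's median log2 change against Control was -0.17. Under median-ratio and protein-coding scaling it was 0.37 and 0.41, beside 0.50 and 0.55 in BMN and 0.13 under both in BMN/PAZA_Low_dose. How near BMN/PAZA_High_dose lay to Control thus depended on the scaling. Between BMN/PAZA_Low_dose and PAZA the log2 change was -0.56, lower than in all but 8.68% of genes. Fibroblast markers (7 genes) summed to 1049 in BMN and 603 in PAZA and to between 357 and 394 in the other libraries, adipocyte markers to 92.7 and 114 against 45.8 to 66.7, and endothelial markers to 56.9 and 62.8 against 36.1 to 43.5. Proliferation genes summed to 2010 in BMN and 1484 in PAZA against 1157 to 1342 in the other libraries. Leukocyte markers summed to 283 and 255 against 188 to 227, and macrophage markers to 487 and 445 against 335 to 430. All these sums were highest in the same libraries as ETV4, whereas those of skeletal muscle, epidermis and neutrophil markers were not. The part of any of them in the ETV4 values was not tested.

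ETV5 was close to flat, with 1.99 in Control, 2.33 in BMN, 2.39 in PAZA, 2.50 in BMN/PAZA_Low_dose and 2.09 in BMN/PAZA_High_dose. Its highest level was 1.26 times its lowest. On the log2(level + 1) scale its range was below that of all but 1.60% of 11214 genes with a mean level of at least 1. At levels this low the added 1 narrows the range, which lowers this rank. Among the PEA3 factors, ETV4 made up 71.8% to 82.3% of the summed level of ETV1, ETV4 and ETV5, with its lowest share in Control and its highest in PAZA. Etv4 lies on chromosome 11 from 101769742 to 101785371 and Etv5 on chromosome 16 from 22381309 to 22439719, both on the minus strand of GRCm38.

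NRAS, the GTPase at the head of the cascade, was highest in Control. Its level was 79.7 in Control, 67.5 in BMN, 62.6 in PAZA, 52.7 in BMN/PAZA_Low_dose and 56.7 in BMN/PAZA_High_dose. All 4 treated libraries were lower than Control, by log2 changes of -0.24, -0.34, -0.59 and -0.48 in that order, and all 4 were lower under each of the other scalings too. The lowest library was BMN/PAZA_Low_dose under all 3 scalings, while the order of BMN, PAZA and BMN/PAZA_High_dose between these ends changed with the scaling. In BMN/PAZA_Low_dose against Control NRAS was past 1.5-fold lower, as were 12.8% of all genes, but its change was -0.49 under median-ratio and -0.50 under protein-coding scaling and -0.55 relative to all genes, none of them past 1.5-fold. Nras lies on chromosome 3 from 103058285 to 103067914 on the plus strand, and its annotated pseudogene Nras-ps2 was listed at 0 in the table that holds it.

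MYC, the growth-promoting transcription factor whose protein ERK stabilizes, had a level of 40.3 in Control, 45.8 in BMN, 33.7 in PAZA, 31.8 in BMN/PAZA_Low_dose and 29.5 in BMN/PAZA_High_dose. BMN was the highest library and the 3 libraries with PAZA were below Control, with log2 changes of -0.25, -0.33 and -0.43, against 0.18 in BMN. These directions were the same under all 3 scalings, whereas the order of both combination libraries turned. MYC lies on chromosome 15 from 61985391 to 61990374 on the plus strand.

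FOSL1, the AP-1 subunit also called FRA1, was ordered in a similar way, with 16.8 in Control, 23.0 in BMN, 18.0 in PAZA, 15.1 in BMN/PAZA_Low_dose and 12.9 in BMN/PAZA_High_dose. It was highest in BMN and lowest in BMN/PAZA_High_dose under all 3 scalings. The log2 change of BMN/PAZA_High_dose against BMN was -0.79, or -0.52 relative to the all-gene median of -0.27. FOSL1 and MYC were the members past 1.5-fold lower in that comparison, in which 24.0% of all genes were past the same fold, so 2 of 9 is close to the background. Under median-ratio and protein-coding scaling the changes were -0.46 and -0.48 for FOSL1 and -0.27 and -0.29 for MYC, and neither gene was past 1.5-fold there or after centring on all genes. Fosl1 lies on chromosome 19 from 5447547 to 5455946 on the plus strand and overlaps Ccdc85b on the opposite strand, which had levels between 0.888 and 2.10. Whether the counting used strand is not given in the sources used here.

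The feedback inhibitors DUSP6, SPRY2 and SPRY4 all had log2(level + 1) ranges below the median of all genes. DUSP6 had a level of 65.1 in Control, 84.9 in BMN, 61.3 in PAZA, 70.1 in BMN/PAZA_Low_dose and 63.7 in BMN/PAZA_High_dose. BMN was its highest library under all 3 scalings, with a log2 change of 0.38 against Control. The change was -0.09 in PAZA and -0.03 in BMN/PAZA_High_dose, and both turned positive under median-ratio and protein-coding scaling. Dusp6 lies on chromosome 10 from 99263231 to 99267489 on the plus strand.

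SPRY2 had 19.0 in Control, 15.4 in BMN, 17.6 in PAZA, 15.9 in BMN/PAZA_Low_dose and 15.6 in BMN/PAZA_High_dose, a range smaller than that of all but 3.60% of genes. It was lowest in BMN under all 3 scalings, where DUSP6 was highest, and its highest library was Control, PAZA or BMN/PAZA_High_dose depending on the scaling. SPRY4 was weakly expressed, with 0.935 in Control, 1.36 in BMN, 1.13 in PAZA, 0.797 in BMN/PAZA_Low_dose and 0.953 in BMN/PAZA_High_dose. Its highest level was 1.71 times its lowest, and the added 1 compresses its log2 changes, since that of BMN/PAZA_Low_dose against BMN was -0.40 and became -0.71 with a pseudocount of 0.1. SPRY2 made up 87.9% to 94.5% of the summed level of the 4 Sprouty genes, and SPRY4 4.65% to 7.79%. Spry2 lies on chromosome 14 from 105891947 to 105896819 and Spry4 on chromosome 18 from 38586247 to 38601415, both on the minus strand.

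On the log2(level + 1) scale most members varied over a narrow range. Only FOSL1 and PHLDA1 had a log2 range over the 5 libraries above the median range of 0.76, and the other 7 were below it. In BMN against Control 7 of 9 members were higher, as were 59.9% of all genes, with a median log2 change of 0.29 beside 0.09 over all genes, and SPRY2 and NRAS were lower. Fibroblast, skeletal muscle and epidermis markers had medians of 1.40, 3.25 and 2.01 there and proliferation genes one of 0.41, and their part in the members' values was not tested. ETV4 and PHLDA1 were past 1.5-fold higher there, as were 13.2% of all genes, and the same pair was past 1.5-fold higher in PAZA against Control, beside 10.5% of all genes. In PAZA both stayed past 1.5-fold under every scaling, whereas in BMN the change of ETV4 was 0.50 under median-ratio and 0.55 under protein-coding scaling and 0.50 relative to all genes, so that only PHLDA1 stayed past 1.5-fold. The member median in PAZA against Control was 0.10 beside -0.07 over all genes, with 5 members higher and 4 lower. In BMN/PAZA_Low_dose against Control it was -0.11 beside -0.03, and in BMN/PAZA_High_dose against Control -0.03 beside -0.17, the latter turning to 0.14 and 0.20 under the other scalings. At 2-fold, 0 of 9 members were called in PAZA against Control, where 3.47% of all genes were higher and 3.53% lower, and 0 of 9 in BMN against Control, where the shares were 4.66% and 2.25%. None was called in BMN/PAZA_Low_dose against Control either, beside 3.65% higher and 3.54% lower.

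Against BMN, 7 of 9 members were lower in BMN/PAZA_Low_dose, with a median of -0.35 beside -0.14 over all genes, and 60.7% of all genes were lower. In BMN/PAZA_High_dose 7 of 9 were lower too, with a median of -0.28 beside -0.27, where 72.0% of all genes were lower, so that this count is near the background. Markers of several other cell types were lower in the same low dose comparison, with medians of -1.40 for fibroblast, -2.96 for skeletal muscle, -5.40 for epidermis, -0.48 for endothelial and -0.35 for leukocyte markers, and in that of the high dose the medians were -1.06, 0.34, -4.28, -0.23 and -0.60. Neutrophil markers were higher, with medians of 0.37 at the low and 0.64 at the high dose. The part of these cells in the members' values was not tested. At 2-fold 0 of 9 were called in both, beside 3.22% of all genes higher and 5.86% lower at the low dose, and 2.33% and 6.89% at the high dose. At the high dose 4 members lay above the all-gene median and 5 below it, and NRAS and ETV5 turned to higher under another scaling. Against PAZA, 6 of 9 were lower in BMN/PAZA_Low_dose, as were 45.8% of all genes, with a median of -0.13 beside 0.03 and 0 of 9 past 2-fold, beside 2.45% of all genes higher and 2.78% lower, and these 6 stayed lower under every scaling. The fibroblast and skeletal muscle markers had medians of -0.51 and -1.41 there. Between both doses of the combination most members lay close together. The median log2 change of low over high dose was 0.02 beside 0.13 over all genes, and it turned to -0.12 and -0.16 under the other scalings, with 0 of 9 past 2-fold beside 3.38% of all genes higher and 2.34% lower. Only PHLDA1 lay outside the middle 80% of all genes there, with a log2 change of -0.43, lower than in all but 9.71% of genes. Under median-ratio and protein-coding scaling its change was -0.58 and -0.64, the latter past 1.5-fold lower. Marker medians there were -3.30 for skeletal muscle, -1.16 for epidermis and -0.46 for neutrophils, against 0.44 for macrophages and 0.21 for leukocytes. Their part in the members' values was not tested. The comparisons against Control share 1 library, as do those against BMN, so they are not independent.

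**Figure D2:**
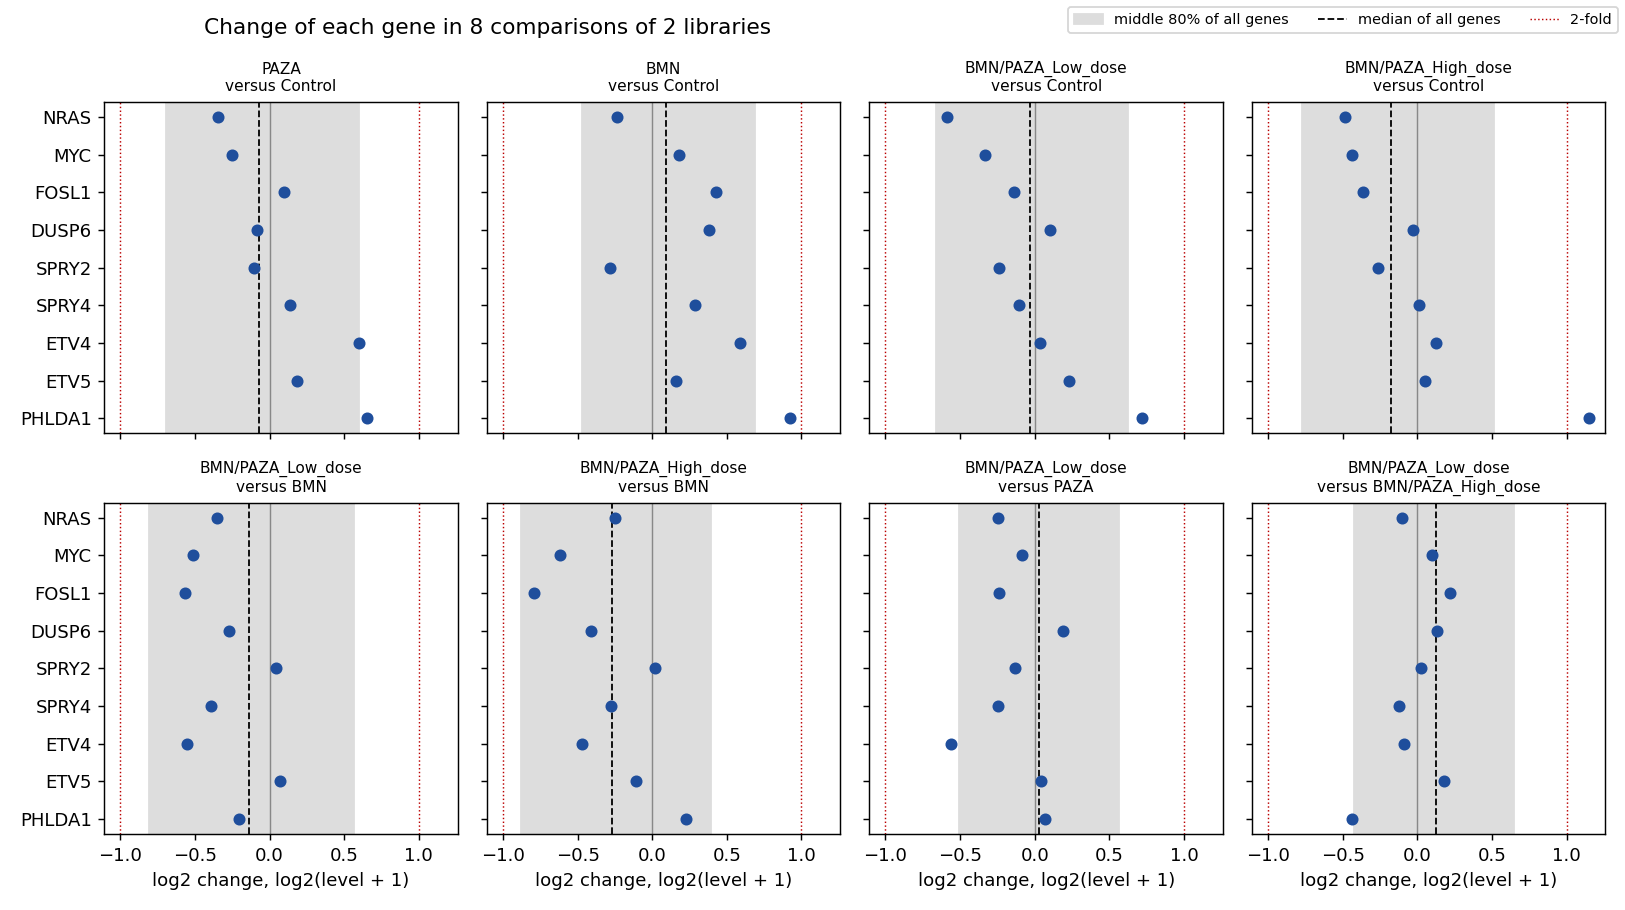
Log2 change of each gene on the log2(level + 1) scale in the 8 comparisons, 1 point per gene, with the middle 80% of all genes in grey, their median as a dashed line and 2-fold as dotted lines. PHLDA1 lies to the right of the grey band in the 4 comparisons against Control, past 2-fold at 1.15 in BMN/PAZA_High_dose, and ETV4 lies to its left at -0.56 in BMN/PAZA_Low_dose against PAZA.

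**Figure D3:**
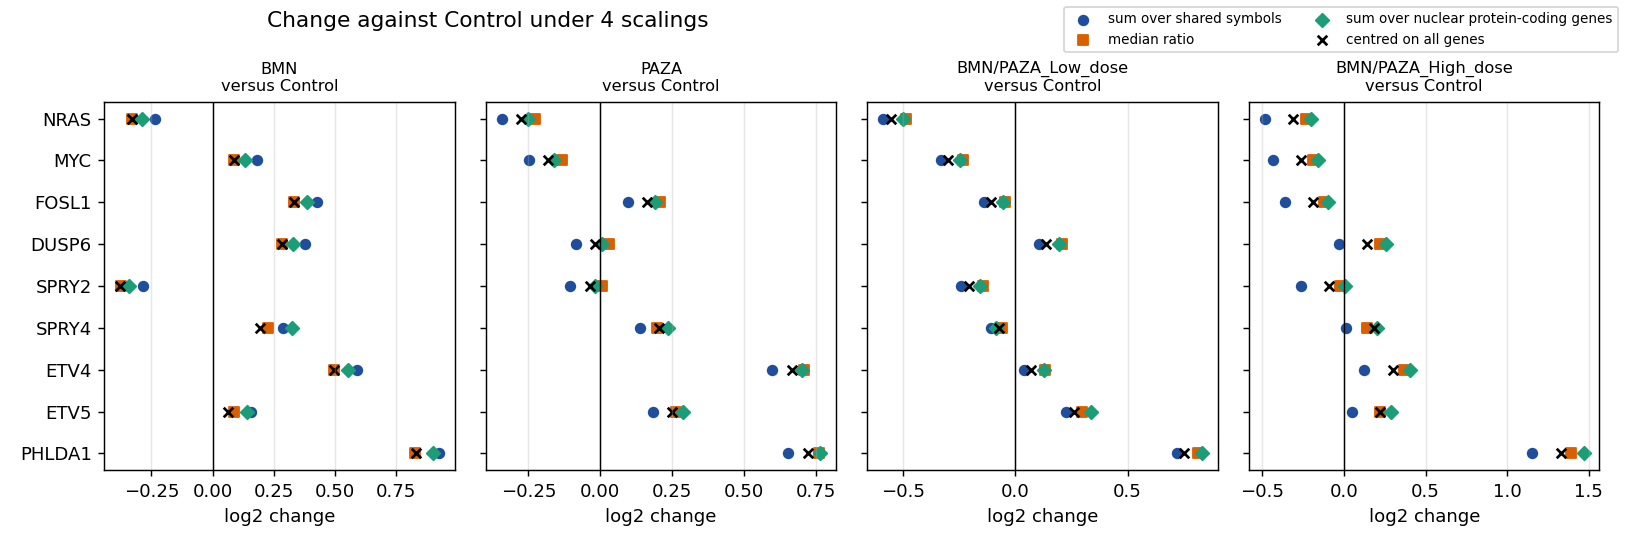
Log2 change of each gene against Control under the scaling used here, a median-ratio scaling, a sum over nuclear protein-coding genes, and after centring on the median of all genes, 1 marker per scaling. PHLDA1 is above 0 and NRAS below 0 in all 4 comparisons under every scaling, whereas DUSP6 and SPRY2 cross 0 in PAZA and BMN/PAZA_High_dose.

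The wider pathway was described through 10 lists with 146 genes other than the members, of which 140 were found. In BMN against Control, 9 of the 140 were past 2-fold higher and 0 lower, or 6.43% and 0%, beside 4.66% and 2.25% of all genes. Against BMN, 12 were past 2-fold lower in BMN/PAZA_Low_dose, or 8.57%, beside 5.86% of all genes, and 2 higher, or 1.43%, beside 3.22%. In BMN/PAZA_High_dose 11 were lower, or 7.86%, beside 6.89%, and 0 higher, beside 2.33%. The 14 immediate-early and AP-1 genes, which ERK signaling switches on within minutes, had a median log2 change of 0.47 in BMN against Control beside 0.09 over all genes, with 11 higher, where 59.9% of all genes were, and 2 past 2-fold. Markers of several other cell types differed more in the same comparison, with median log2 changes of 1.40 for fibroblast, 3.25 for skeletal muscle, 2.01 for epidermis and 0.76 for endothelial markers, and the leukocyte and macrophage lists had medians of 0.33 and 0.27 and the neutrophil list one of -0.18. Their part in the immediate-early values was not tested. EGR1, the zinc finger factor among them with the highest change, had 9.08 in BMN and 3.26 in Control, and 2.19 and 2.06 in the low and high dose combinations. A separate list of 10 proliferation genes had a median of 0.41 in the same comparison, and its summed level ran from 1157 in BMN/PAZA_High_dose to 2010 in BMN. It was highest in the library where MYC, FOSL1 and DUSP6 were highest, and its part in these values was not tested.

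Ligands and receptors included genes past 2-fold. The ligand gene HBEGF, which encodes a growth factor for the EGF receptor, had 14.9 in Control, 29.1 in BMN, 22.4 in PAZA, 35.1 in BMN/PAZA_Low_dose and 34.1 in BMN/PAZA_High_dose, higher than Control in all 4 treated libraries. FGF2, a fibroblast growth factor, had 0.449 in Control, 2.91 in BMN, 2.34 in PAZA, 2.26 in BMN/PAZA_High_dose and 0.206 in BMN/PAZA_Low_dose. The skeletal muscle markers summed to 173 in BMN, 61.7 in PAZA and 200 in BMN/PAZA_High_dose, against 11.7 in Control and 16.0 in BMN/PAZA_Low_dose. Their part in the FGF2 values was not tested. The EGF receptor gene EGFR had 1.01 in Control, 3.44 in BMN, 1.19 in PAZA, 0.729 in BMN/PAZA_Low_dose and 2.37 in BMN/PAZA_High_dose. It was highest and lowest in the same libraries as the epidermis markers but in another order between them, and their 5 measured genes of 7 summed to 76.1 in Control, 241 in BMN, 9.31 in PAZA, 1.95 in BMN/PAZA_Low_dose and 13.8 in BMN/PAZA_High_dose, with KRT5 and KRT1 listed at 0 in BMN/PAZA_Low_dose. In BMN/PAZA_High_dose EGFR was higher than in Control, as were the skeletal muscle markers, whereas the epidermis markers were lower. The part of such cells in the EGFR values was not tested. The receptor KIT had 4.79 in PAZA, 3.54 in BMN/PAZA_Low_dose and 0.600 in Control, and FGFR2 had 0.459 in PAZA and 1.29 in BMN/PAZA_Low_dose against 5.91 in Control. The epidermis sums were also lower in PAZA and BMN/PAZA_Low_dose than in Control, and their part in the FGFR2 values was not tested.

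Below the receptors, RASGRP3, an exchange factor that loads RAS with GTP, had 3.43 in PAZA and 3.93 in BMN/PAZA_High_dose against 10.8 in Control. The phosphatase gene PTPN11, which encodes SHP2 and is needed for RAS activation, had 33.8 in BMN/PAZA_Low_dose against 71.1 in BMN. In the core list of 17 genes, RPS6KA1, which encodes the ERK-activated kinase RSK1, had 10.5 in BMN/PAZA_Low_dose against 2.15 to 2.89 in the other 4 libraries. KSR1, a scaffold of the cascade, had 0.354 in BMN/PAZA_High_dose against 2.25 in BMN. Among the 16 other negative feedback genes, 0 were past 2-fold on the log2(level + 1) scale in the 8 comparisons, in which 2.25% to 6.89% of all genes were past it in each direction. SPRED2 and DUSP4, named here after their values were seen, came near it. SPRED2, a Sprouty-related inhibitor, had 7.86 in Control, 3.89 in BMN/PAZA_Low_dose and 3.51 in BMN/PAZA_High_dose. DUSP4, a nuclear phosphatase of ERK, had 92.5 in Control, 58.4 in BMN, 48.9 in PAZA, 54.9 in BMN/PAZA_Low_dose and 52.7 in BMN/PAZA_High_dose.

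The MYC network held MNT, a repressor that competes with MYC for its partner MAX, at 1.22 in BMN/PAZA_High_dose against 3.66 in Control and 4.49 in BMN. The 15 MYC-responsive growth genes had medians of -0.51 and -0.56 in the low and high dose combinations against BMN, beside -0.14 and -0.27 over all genes, and 12 and 13 of them were lower, where 60.7% and 72.0% of all genes were. In these comparisons the proliferation list had medians of -0.28 and -0.47 and the fibroblast markers of -1.40 and -1.06, and their part was not tested. NCL, which encodes nucleolin, had 395 in BMN/PAZA_High_dose against 832 in BMN. NME1, of the same list, was past 2-fold in 3 comparisons, at 36.0 in BMN against 8.55 in Control, and its values in PAZA and BMN/PAZA_Low_dose, though not in BMN or BMN/PAZA_High_dose, departed from the constant between tables. EPHA4, in the list of ETS and other ERK-responsive genes, had 2.45 in BMN against 0.522 in Control and 0.122 in BMN/PAZA_Low_dose. MMP3, a matrix metalloproteinase gene responsive to AP-1, had 7.05 in BMN/PAZA_High_dose against 17.5 in BMN.

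**Figure D4:**
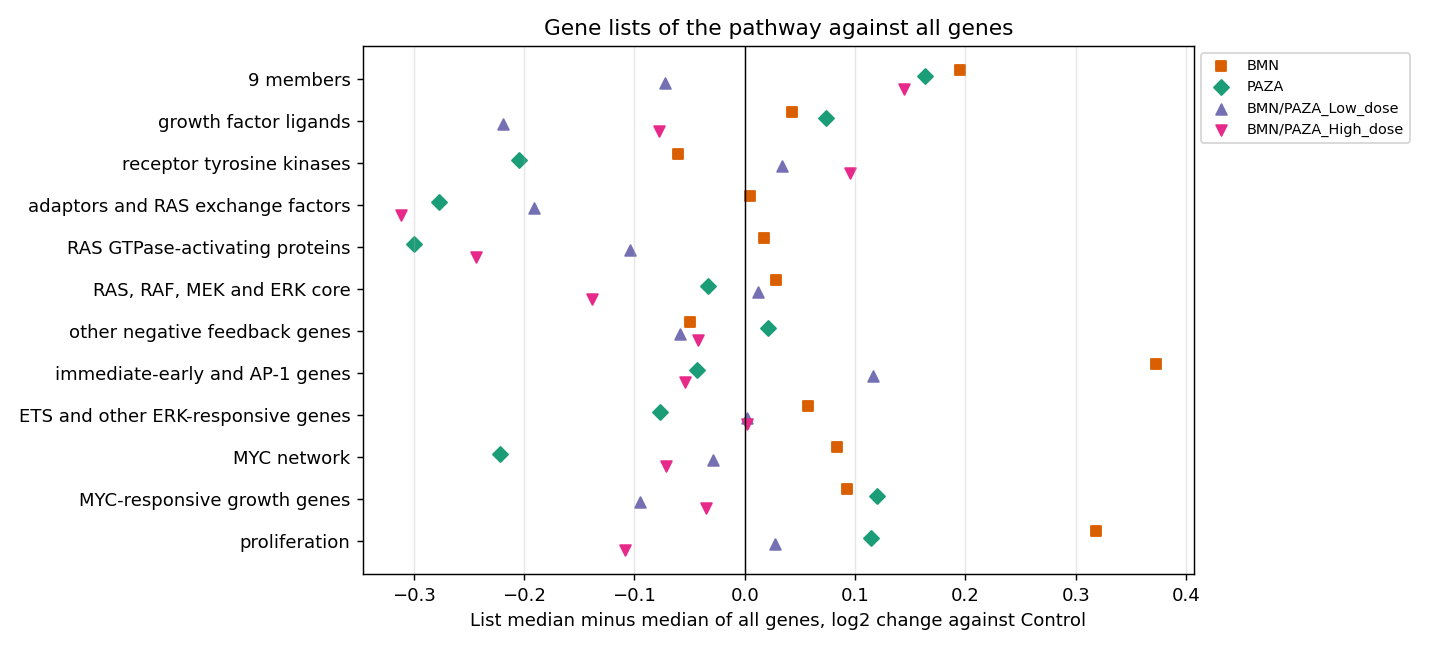
Median log2 change of the members, each pathway list and the proliferation list against Control minus the median over all genes, 1 point per list and treated library. The cell type marker lists are not shown. The immediate-early and AP-1 list in BMN is at 0.37 and the proliferation list in BMN at 0.32, above the members at 0.20, and the lowest points are adaptors and RAS exchange factors in BMN/PAZA_High_dose at -0.31 and GTPase-activating proteins in PAZA at -0.30.

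Likeness of pattern was measured as the root mean square difference of log2(level + 1) profiles centred over the 5 libraries, so 0 means the same pattern. For PHLDA1 the nearest gene of the pathway and proliferation lists was HBEGF, at 0.20, and the nearest of 11213 genes were SCAMP4 at 0.071, HOXB7 at 0.087 and PLPP5 at 0.096, with only 5 genes within 0.1. For ETV4 the nearest gene of these lists was PLK1, a mitotic kinase, at 0.11, and LDLRAD3, CXCL16 and USP17LA lay at 0.030, 0.039 and 0.054, with 26 genes within 0.1. For MYC, 549 of all genes lay within 0.1 of it, so its pattern was a common one. NRAS was nearest to BRAF at 0.10, FOSL1 to RRS1 at 0.061, DUSP6 to ELK1 at 0.063, SPRY2 to MCM6 at 0.098, SPRY4 to RRAS2 at 0.077 and ETV5 to EPHA2 at 0.061. On this scale a gene with no change at all would lie at 0.11 from SPRY2, 0.14 from SPRY4 and 0.085 from ETV5. It would lie at 0.39 from PHLDA1 and 0.27 from ETV4. A small distance therefore says little for SPRY2, SPRY4 and ETV5. The added 1 flattens the profile of SPRY4, whose highest level was 1.71 times its lowest. The nearest of all genes were NR2C2, ZFP367 and MTAP for NRAS, NUP50, PCSK5 and VPS11 for FOSL1, and PELI1, CPOX and PREB for DUSP6. These distances rest on 5 libraries that share their scaling and are a description only.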

How the data were processed

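RNA from 5 groups of LLC, 1 library each, was mapped to GRCm38. The submitters' processing notes name HISAT2 and StringTie. The authors deposited 5 tables of 2 libraries each with no unit named, and these deposited values were read as FPKM from their form. The members and gene lists were chosen with earlier results of these data known. Control and PAZA, BMN and BMN/PAZA_High_dose, and BMN/PAZA_Low_dose were taken from 3 tables, with the highest-mean row for a repeated symbol, and scaled to a sum of 1e+06 over 13979 shared symbols. Changes were computed as log2(level + 1) for genes above 0 in either library and set beside all genes. Genes 2-fold apart were counted. A library's values in 2 tables were compared with their median ratio, with a tolerance of 0.5%. No test was run. Steps were tested on simulated data.

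Named genes were all members, the highest and lowest gene past 2-fold of each pathway list and comparison, of which examples are given, and the genes nearest in pattern, of which some are not reported here. Alternatives were a pseudocount of 0.1, a mean level of at least 1, median-ratio scaling, unscaled values, summed rows, other tables and a fold of 1.5. Scaling over nuclear protein-coding genes and centring were chosen after seeing the data. Positions are from GENCODE M21. Python 3.11.15, numpy 2.4.6, pandas 2.3.3 and matplotlib 3.10.9 were used.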

Additional observations from a re-analysis of the deposited data

Results flagged for a closer look

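ETV4 was higher in PAZA than in Control and lower in both combinations than in BMN. Its log2 change was 0.60 for PAZA over Control, -0.55 for BMN/PAZA_Low_dose over BMN and -0.47 for BMN/PAZA_High_dose over BMN, so that the difference of changes was -1.15 at the low dose and -1.06 at the high dose. Among genes with a mean level of at least 1, 6.75% had a lower difference at the low dose and 9.61% at the high dose. Under median-ratio scaling the changes over BMN were -0.36 at the low dose and -0.13 at the high dose, and under protein-coding scaling -0.43 and -0.15, with differences of -1.07 and -0.84 under the former and -1.13 and -0.85 under the latter. The labels give BMN a low dose in one combination and a high dose in the other, so that at least 1 of them also differs from the BMN library in the dose of BMN. The paper's supplement names BMN and PAZA alone at the dose of the lower combination. By that naming, the high dose combination would differ from the BMN library in BMN dose and from the PAZA library in azacytidine dose. The difference was not tested, since each group has 1 library, and both differences share the Control, BMN and PAZA libraries.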

How the results depend on the processing

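No paired analysis was possible because each group has 1 library and no result comes from a test, and for the same reason no replicate could be left out. With the deposited values of the table of both combination doses, not rescaled, the median log2 change of the members in low over high dose was 1.57 and 8 members were past 2-fold. In that table the low dose column is larger by a constant, and between its values in the tables with BMN and with BMN/PAZA_High_dose the ratio was 0.307. At a fold of 1.5, 2 members were counted in each of PAZA against Control, BMN against Control, BMN/PAZA_Low_dose against Control and BMN/PAZA_High_dose against BMN, in place of 0. The other medians and counts moved by less than 1.5-fold under each alternative run. Of 72 member changes, 14 had another sign under at least 1 alternative, the largest of them -0.43 for PHLDA1 in low over high dose, which turned only with those unscaled values. Members off the constant numbered 0 at a tolerance of 5% too. Depth is unknown, which limits SPRY4 and ETV5 most, at levels under 3.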
